A study of Mus musculus with 6 samples.

Results

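Ectopeptidases and ectonucleotidases are enzymes of the cell surface that cut peptides or nucleotides outside the cell. The set described here holds 8 named genes, Dpp4, Anpep, Mme, Ace, Entpd1, Nt5e, Cd38 and Enpp1. A gene was followed through the probe set that carries its symbol alone, and where several exist the one with the highest mean over the 6 arrays. Such a probe set was found for 6 of the 8 genes, each with 1 probe set, among 19938 genes tested. Cd38 and Enpp1 were not analysed here.

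Marrow cells of C57B/6 mice had been grown for 6 days in recombinant GM-CSF at 20 ng/ml, a cytokine that drives myeloid growth, and their RNA was put on 6 Affymetrix Mouse Gene 1.0 arrays. The labels name a dendritic population (GM-DC, n = 3) and a macrophage population (GM-MF, n = 3). Both are unstimulated, both come from tibia and femur marrow of mice of the same strain, and both saw the same cytokine. The labels give neither the animals' age, nor how the populations were parted, nor whether replicates are separate mice or cultures. The spread behind each p-value may therefore be technical. Had one of the enzymes below been used to sort the cells, its difference would come from the sort.

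These enzymes shape signals between cells. Surface peptidases trim chemokines, kinins, angiotensins and enkephalins and so start or end their action. ATP released by stressed cells alerts the innate immune system through P2 receptors, and the enzyme CD39 (Entpd1) strips it to AMP, which CD73 (Nt5e) turns into adenosine, a nucleoside that calms immune cells. In the mouse spleen Dpp4 and Anpep are among the surface proteins seen on conventional dendritic cells, while CD39 is found on macrophages and, in the skin, on Langerhans cells.

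Dpp4 was the single member that was higher in the dendritic population, by 9.26-fold. Entpd1, Nt5e, Anpep and Ace were lower there, by 14.1-fold, 3.82-fold, 2.49-fold and 2.23-fold. Mme was not called and sat far below the typical gene on every array. All values are deposited log2 RMA values, and each difference is a log2 value with the macrophage mean subtracted from the dendritic one. A gene is called at a limma adjusted p under 0.05, with Benjamini-Hochberg adjustment over all 19938 genes. By this rule 5 of the 6 measured members were called, where 21.6% of all genes were, with 1 higher (9.98% of all genes) and 4 lower (11.6%). All 5 called members also differed by at least 2-fold, where 10.3% of all genes were called at that size. For all 5 the dendritic and macrophage arrays did not overlap, as for 34% of all genes. The median difference of the 6 members was -1.24, beside 0.03 over all genes. The genes were chosen with earlier results of these data known, and the counts describe the set without a test of it.

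The populations were distinct by most genes of the dendritic cell and macrophage marker lists. Of 10 dendritic cell markers 8 were higher and 1 (Itgax) lower in the dendritic arrays. The last, H2-Ab1, was not called (difference -0.39, limma adjusted p = 0.0745), although all its dendritic values lay below its macrophage values. The mean log2 value over the list was 9.64 to 9.68 in dendritic and 6.94 to 7.28 in macrophage arrays. All 9 measured macrophage markers were lower, at a mean of 5.22 to 5.29 in dendritic and 9.87 to 10.21 in macrophage arrays. In the other lists 2 of 9 B cell markers (Cd79a and Igll1), 1 of 9 T and NK cell markers (Cd8a) and 1 of 10 mast cell and basophil markers (Kit) were higher. Lower were 2 of 10 neutrophil markers (Csf3r and Mpo) and 1 of 6 erythroid and megakaryocyte markers (Pf4), and none of 10 stromal and endothelial markers was called. The mean over the stromal list was 4.35 to 4.67 in dendritic and 4.36 to 4.70 in macrophage arrays, and over the B cell list 4.54 to 4.94 in dendritic and 4.53 to 4.83 in macrophage arrays. Means over 3 other lists did not overlap. They were 4.01 to 4.27 in dendritic and 3.89 to 3.99 in macrophage arrays for T and NK cells, 4.50 to 4.67 in dendritic and 4.03 to 4.30 in macrophage arrays for mast cells and basophils, and 4.53 to 4.97 in dendritic and 5.61 to 5.73 in macrophage arrays for erythroid cells and megakaryocytes. In each of these lists the 1 called gene had the largest difference. Mean log2 values in dendritic and macrophage arrays were 7.63 and 4.83 for Cd8a, 7.39 and 4.62 for Kit, and 4.70 and 10.62 for Pf4. The other measured genes of these 3 lists were not called. The part of such cells in the members' differences was not tested. Neutrophil markers were highest in replicate 1 of both populations, at a mean of 7.43 in dendritic and 7.95 in macrophage replicate 1, beside 6.18 to 6.54 in the other dendritic and 6.60 to 6.63 in the other macrophage arrays. The table holds no zeros and no detection calls, so no marker can be called absent. In bulk samples, fewer cells of a type and less RNA per cell cannot be told apart.

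The promoter windows below give the sequence context of Dpp4, Anpep, Nt5e and Entpd1. They were taken from a RefSeq promoter table of build GRCm38.p6, in which all 6 measured members were found with 10 windows. Each runs 5′ to 3′ on the gene's strand through the 250 bases before a transcription start. For Dpp4 the bases nearest the start are left out because a longer transcript covers them. Capitals mark matches on either strand to the searched motifs, which were an NF-kB motif (GGGNNNNNCC), an AP-1 motif (TGANTCA), an Ets motif of PU.1 and its relatives (GAGGAA), an interferon regulatory factor motif (GAAANNGAAA), a STAT motif (TTCNNNGAA) and a GC box (GGGCGG). Motifs may overlap. Dpp4 lies at chr2:62412316-62412481 (minus strand), Anpep at chr7:79848211-79848460 (minus strand), Nt5e at chr9:88327359-88327608 (plus strand), and Entpd1 has an upstream start with chr19:40612116-40612365 and a downstream start with chr19:40659520-40659769 (plus strand).
Dpp4: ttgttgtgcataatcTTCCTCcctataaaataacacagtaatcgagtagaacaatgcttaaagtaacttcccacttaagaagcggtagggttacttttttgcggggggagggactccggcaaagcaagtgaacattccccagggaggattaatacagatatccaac
Anpep: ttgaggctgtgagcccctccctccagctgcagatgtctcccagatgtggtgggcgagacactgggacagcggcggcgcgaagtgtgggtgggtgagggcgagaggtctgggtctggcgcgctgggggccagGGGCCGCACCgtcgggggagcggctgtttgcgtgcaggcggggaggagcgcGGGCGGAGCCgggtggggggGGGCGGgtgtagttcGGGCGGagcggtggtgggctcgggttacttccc
Nt5e: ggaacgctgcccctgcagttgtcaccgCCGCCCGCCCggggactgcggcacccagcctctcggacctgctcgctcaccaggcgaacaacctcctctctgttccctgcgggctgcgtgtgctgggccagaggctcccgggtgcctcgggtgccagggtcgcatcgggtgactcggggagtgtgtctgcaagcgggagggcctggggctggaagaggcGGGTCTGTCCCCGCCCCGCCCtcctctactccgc
Entpd1 upstream start: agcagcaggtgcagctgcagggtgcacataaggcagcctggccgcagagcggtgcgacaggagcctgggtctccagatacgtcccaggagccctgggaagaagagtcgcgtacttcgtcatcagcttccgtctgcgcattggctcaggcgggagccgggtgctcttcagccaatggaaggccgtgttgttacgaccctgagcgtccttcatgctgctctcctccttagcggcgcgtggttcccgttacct
Entpd1 downstream start: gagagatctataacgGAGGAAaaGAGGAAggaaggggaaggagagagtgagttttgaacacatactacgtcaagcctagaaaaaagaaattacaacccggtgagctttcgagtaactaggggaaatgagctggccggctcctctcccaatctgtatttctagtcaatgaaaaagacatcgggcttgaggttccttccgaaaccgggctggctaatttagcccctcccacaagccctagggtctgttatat

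The windows differ in base composition. The Dpp4 stretch has 42.8% G and C over the 166 bases printed. Over 250 bases the downstream Entpd1 window has 47.2%, against 72.8% in Anpep, 72% in Nt5e and 62.4% in the upstream Entpd1 window. GC boxes were found in Anpep, Nt5e, Ace and Mme, and in none of the Dpp4 or Entpd1 windows, where 32.7% of all 32851 windows hold one. The Ets motif was found in Dpp4, Ace and the downstream Entpd1 window (23.3% of all windows), the last holding it at both -235 and -227 from the start. Among these 10 windows the interferon regulatory factor motif was found in Dpp4 alone, as TTTCTCTTTC at -52 to -43, inside the bases not printed (2.98% of all windows). The NF-kB motif was found in Anpep, Nt5e, Ace and Mme, but it is loose and 45.8% of all windows hold it. A match is a description of letters, not a site shown to be bound.

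Among the peptidases, Dpp4 (probe set 10483046) encodes CD26, a serine peptidase that removes a dipeptide from the amino end of chemokines and incretins. Its log2 values were 8.57, 8.69 and 8.37 in the dendritic arrays, against 4.59, 5.35 and 6.06 in the macrophage arrays. The dendritic arrays lay close together and all above the macrophage arrays, which spread widely. The difference was 3.21 ± 0.31 (SE, n = 3 each; 95% interval 2.50 to 3.92; limma adjusted p = 9.17e-05), which ranks 67 from the top among the 19938 genes. The SD was 0.16 over dendritic and 0.74 over macrophage arrays. In macrophage replicates 1, 2 and 3, the mean over the dendritic cell marker list was 6.94, 7.08 and 7.28, so the array with the highest Dpp4 value also had the highest marker mean, and the part of this in the Dpp4 spread was not tested. Without macrophage replicate 3, the array nearest to the dendritic ones, the Dpp4 difference was 3.57, and without macrophage replicate 1 it was 2.84.

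Anpep (probe set 10564818) encodes CD13, a zinc aminopeptidase that trims the amino ends of small peptides. It had log2 values of 8.57, 8.62 and 8.42 in dendritic arrays, against 9.80, 10.01 and 9.74 in macrophage arrays. The values were bright in both populations and the groups did not overlap. The difference was -1.32 ± 0.13 (SE, n = 3 each; 95% interval -1.61 to -1.02; limma adjusted p = 0.000103). Within each array the log2 ratio of Dpp4 to Anpep was higher in the dendritic population by 4.53. Its SD was 0.06 in dendritic and 0.77 in macrophage arrays. The higher ratio follows from the opposite differences of Dpp4 and Anpep given above and is no separate result.

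Ace (probe set 10381962) encodes angiotensin-converting enzyme, which makes angiotensin II, inactivates bradykinin and trims peptides for MHC class I. Its log2 values were 4.26, 5.09 and 4.65 in dendritic and 5.82, 5.97 and 5.68 in macrophage arrays. The groups did not overlap, although the nearest arrays were only 0.59 apart and the dendritic arrays spread more than the macrophage ones. The difference was -1.16 ± 0.20 (SE, n = 3 each; limma adjusted p = 0.00313). The dendritic values lay around or below the median gene on an array, which was 4.99 to 5.16.

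Mme (probe set 10492355) encodes neprilysin, or CD10, which degrades enkephalins, substance P and natriuretic peptides. Its log2 values were 2.31, 2.51 and 2.52 in dendritic and 2.40, 2.47 and 2.69 in macrophage arrays. The groups overlapped, and the difference of -0.07 ± 0.13 (SE, n = 3 each; limma adjusted p = 0.822) has a 95% interval from -0.38 to 0.23. At this level, far under the median gene, RMA values compress differences and a true change may not be visible.

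**Figure D1:**
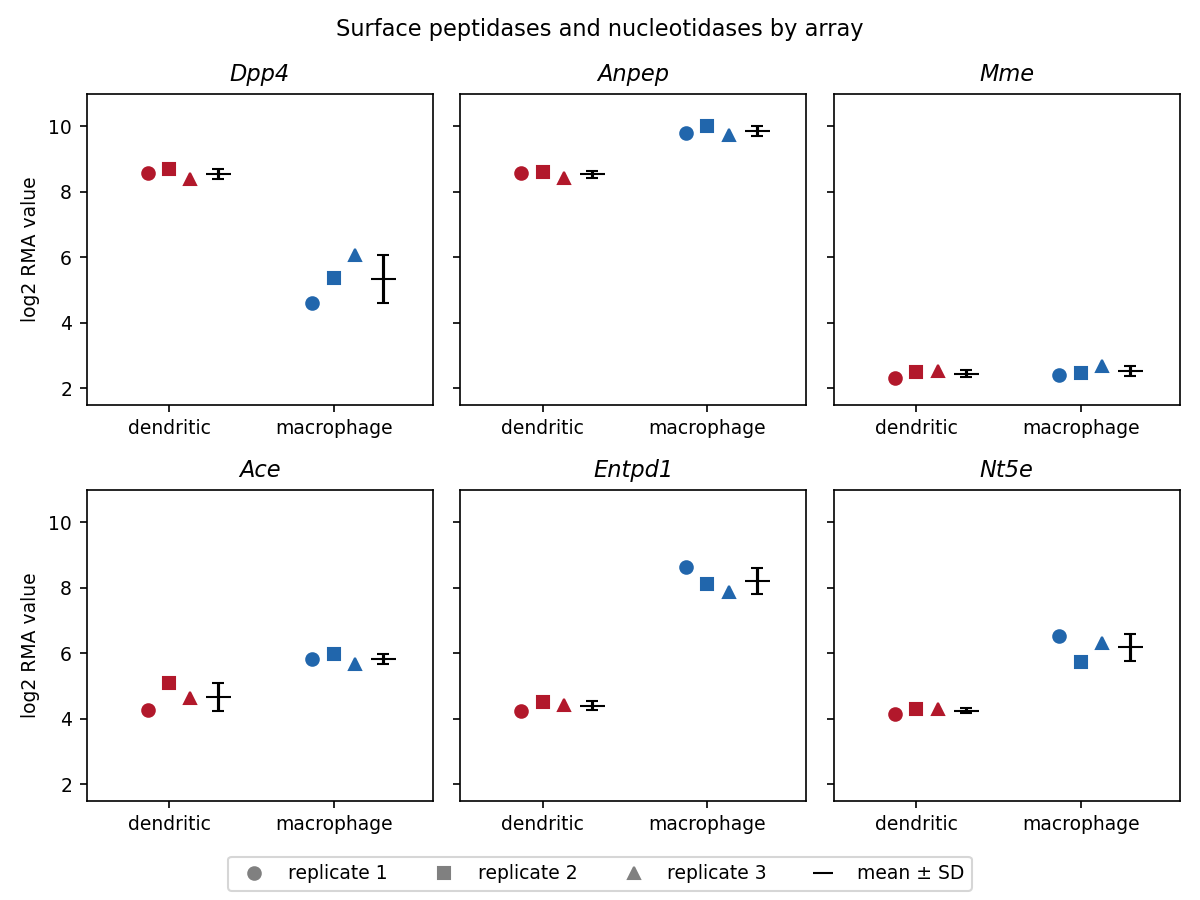
Log2 RMA values of the 6 measured members, 1 panel per gene, with dendritic arrays in red, macrophage arrays in blue, marker shapes for replicates 1 to 3, and the mean ± SD (n = 3) as a black bar. Dpp4 is the panel in which the dendritic arrays lie higher, Anpep, Ace, Entpd1 and Nt5e lie lower in dendritic arrays without overlap, and Mme overlaps near 2.5.

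Of the nucleotidases, Entpd1 (probe set 10463070) had the largest difference of the 6 genes. It encodes CD39, which removes the outer phosphates of ATP and ADP. Its log2 values were 4.25, 4.52 and 4.41 in dendritic and 8.63, 8.12 and 7.86 in macrophage arrays. The lowest macrophage array lay 3.34 above the highest dendritic array. The difference was -3.81 ± 0.20 (SE, n = 3 each; 95% interval -4.26 to -3.37; limma adjusted p = 2.14e-06), rank 88 from the bottom of 19938 genes. The dendritic values were below the median gene.

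Nt5e (probe set 10587639) encodes CD73, the enzyme that completes the route from AMP to adenosine. It had log2 values of 4.15, 4.29 and 4.31 in dendritic and 6.52, 5.72 and 6.31 in macrophage arrays. The groups were 1.41 apart at their nearest arrays, and the dendritic arrays varied less, with an SD of 0.09, than the macrophage arrays at 0.41. The difference was -1.93 ± 0.20 (SE, n = 3 each; 95% interval -2.38 to -1.48; limma adjusted p = 0.000127). The RNA of both enzymes of the route was lower in the dendritic population, and enzyme activity was not measured. The dendritic values of both genes lay below the median gene, so any order of the sizes of their differences holds for RMA values only.

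The macrophage replicates did not order the members alike. Macrophage replicate 1 had the highest Entpd1 and Nt5e and the lowest Dpp4 of the macrophage arrays, and replicate 2 the highest Anpep and Ace. Among dendritic arrays replicate 1 had the lowest value of Mme, Ace, Entpd1 and Nt5e. The median gene was also lowest there, at 4.99, beside 5.16 and 5.13 in dendritic replicates 2 and 3. Its part in the order of the members was not tested. These are single arrays with no order of their own.

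**Figure D2:**
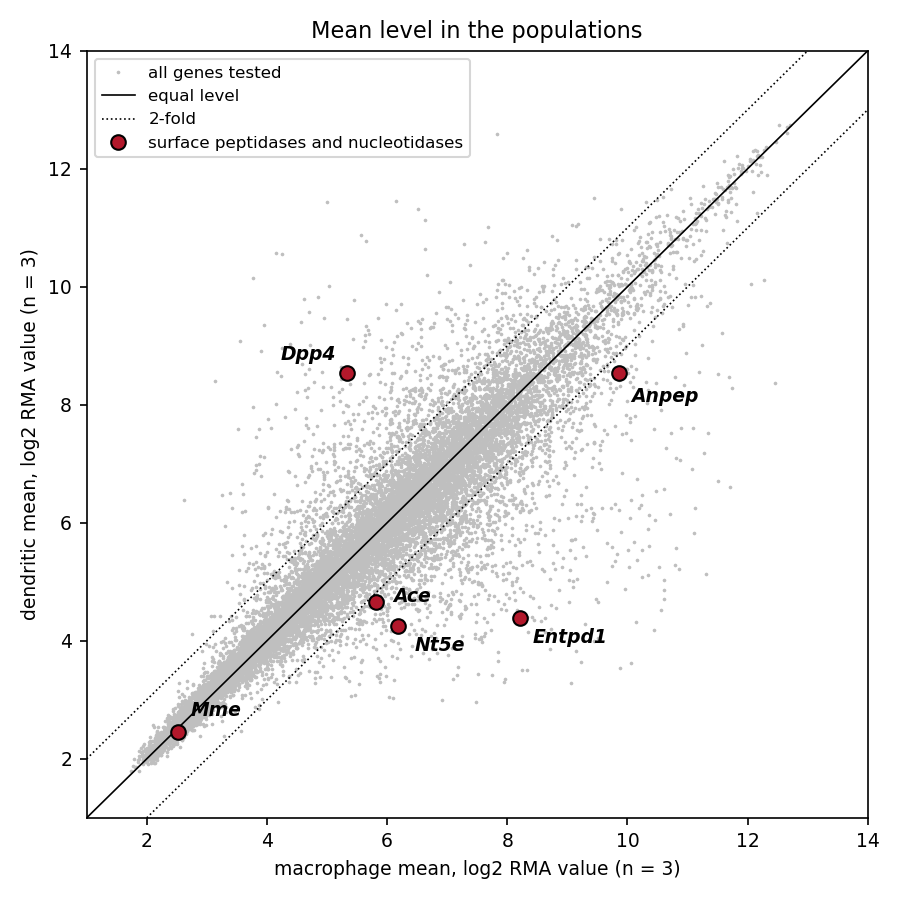
Mean log2 RMA value of each of the 19938 genes in the macrophage (x axis) and dendritic (y axis) arrays, n = 3 each, with the 6 members in red, the line of equal level and dotted lines at 2-fold. Dpp4 lies above the upper dotted line, Anpep, Ace, Nt5e and Entpd1 below the lower one, and Mme on the line of equal level near the low end.

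The genes whose profile over the 6 arrays lay closest to each member were found by the root mean square difference of profiles centred on their own means, among 17131 genes. For Dpp4 these were Plaat3 (0.25 log2 units) and Spint2 (0.27), for Entpd1 Atp8b4 (0.12) and the chemokine receptor Ccr1 (0.14), and for Nt5e Zdhhc9 (0.14) and Adap2 (0.17). For Anpep they were Elovl1 (0.08) and Ubtd1 (0.08), and for Ace Mfsd7a (0.11) and Adamts10 (0.12). For Mme, whose profile is nearly flat, they were Usp17lb (0.02) and Prom1 (0.03). With 6 arrays in separate populations the measure mostly reflects the size of the population difference.

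Other surface peptidases were mixed, and the largest changes were again lower in the dendritic population. Of 20 measured, 7 were called, 2 higher and 5 lower, with a median difference of 0.09. Of all genes 21.6% were called, 9.98% higher and 11.6% lower. The dipeptidase Dpep2, which cuts leukotriene D4 and similar dipeptide bonds, had log2 values of 5.74, 5.68 and 5.17 in dendritic and 10.29, 9.87 and 9.89 in macrophage arrays, a difference of -4.49 ± 0.19 (SE, limma adjusted p = 7.44e-07). Its neighbour in the family, Dpep3, differed by -1.99, and the carboxypeptidase Cpd by -3.84. The members higher were the membrane serine protease St14 (matriptase), at 2.15 ± 0.34, and the endothelin-converting enzyme Ece1 at 1.03 ± 0.14. The relative of Ece1, Ece2, was lower, with a difference of -1.38 ± 0.17 (limma adjusted p = 0.000387). The neprilysin relative Mmel1 (-0.02) and the aminopeptidase Enpep (0.05) were not called.

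Peptidases that act inside the cell were lower or not called. Of 10 relatives of DPP4 and the aminopeptidases, 5 were lower (11.6% of all genes) and 0 higher (9.98%), at a median difference of -0.41. They included the lysosomal dipeptidyl peptidase Dpp7 (-1.62), the arginine-type aminopeptidase Rnpep (-1.92) and Lta4h (-1.43), which also makes leukotriene B4. The closest cytosolic relatives of DPP4, Dpp8 (-0.36, limma adjusted p = 0.247) and Dpp9 (0.11, limma adjusted p = 0.763), were not called. These were singled out for their kinship, after their values were seen. The 5 lower became 3 without any 1 array except dendritic replicate 1.

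Among other surface enzymes that hydrolyse nucleotides, 2 of 16 measured were called (21.6% of all genes), both lower (11.6%), and the other 14 were not. Bst1 (CD157), a GPI-anchored enzyme of the same family as Cd38 that acts on NAD, had log2 values of 4.08, 3.92 and 4.13 in dendritic and 9.15, 9.81 and 9.57 in macrophage arrays. Its difference of -5.46 ± 0.18 (SE, n = 3 each; limma adjusted p = 2.91e-07) is larger than that of any of the 6 members. The dendritic values of Bst1 also lay below the median gene, so this order too holds for RMA values only. Acpp, the acid phosphatase whose membrane form makes adenosine from AMP in mouse sensory neurons, had values of 5.17, 4.74 and 5.17 in dendritic and 9.32, 8.83 and 8.94 in macrophage arrays, a difference of -4.003 ± 0.18 (limma adjusted p = 1.04e-06). The surface NTPDases Entpd2, Entpd3 and Entpd8 differed by 0.30, -0.13 and 0.11 and were not called, nor was the alkaline phosphatase Alpl (0.19). Of 4 NTPDases of inner membranes or secreted, Entpd4 (-1.10) and Entpd5 (-1.10) were lower (11.6% of all genes) and the other 2 were not called.

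**Figure D3:**
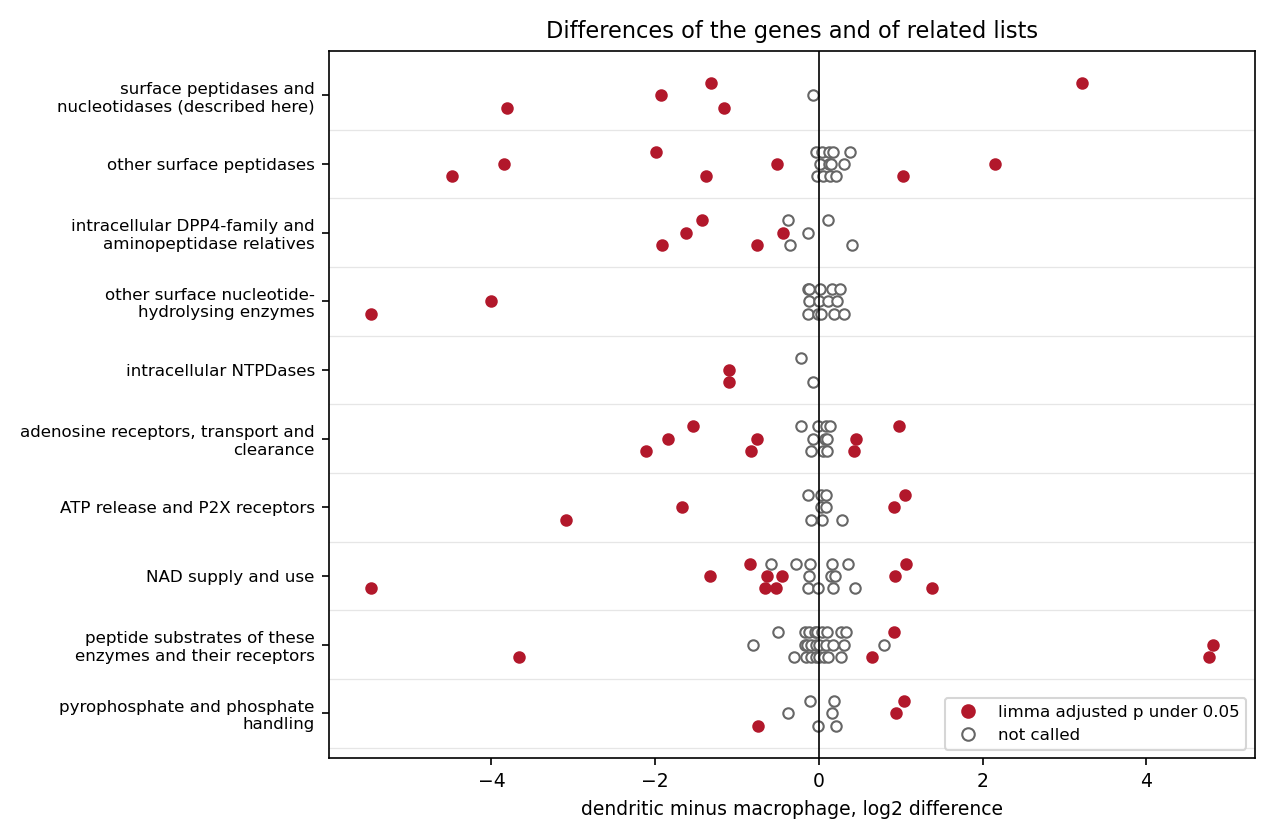
Dendritic minus macrophage log2 differences of the 6 members (top row) and of the measured genes of 9 related lists, with filled red points for genes at a limma adjusted p under 0.05 and open points for the others. Dpp4 stands at 3.21 opposite Entpd1 at -3.81, Bst1 reaches -5.46, and most points of the lists lie near 0.

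Most genes of ATP release and the P2X receptors were not called. Of 12, 2 were higher (9.98% of all genes), 2 lower (11.6% of all genes) and 8 not called, with a median of 0.03. The ATP-gated channel P2rx7, which drives inflammasome activation, had values of 5.16, 5.14 and 4.92 in dendritic and 8.87, 7.86 and 7.77 in macrophage arrays, a difference of -3.09 ± 0.27 (SE, limma adjusted p = 4.58e-05). P2rx4 differed by -1.67 ± 0.15. P2rx5 was higher by 1.06 ± 0.28 (limma adjusted p = 0.024), and the gap junction protein Gja1 by 0.92 ± 0.24 (limma adjusted p = 0.0251). The call of P2rx5 was lost without dendritic replicate 2 (adjusted p = 0.0697) and dendritic replicate 3 (0.0871), and without macrophage replicate 1 its difference was 0.70. The call of Gja1 was lost without dendritic replicate 3 (0.0889), macrophage replicate 2 (0.0928) and macrophage replicate 3 (0.0964). The 2 higher genes were 0 without dendritic replicate 3, and 1 when either macrophage replicate 2, macrophage replicate 3 or dendritic replicate 2 was left out. The release channel Panx1 (-0.10) was not called.

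Of 18 measured genes of adenosine transport and clearance, 5 were lower (11.6% of all genes), 3 higher (9.98%) and 10 not called. The median was 0.02. Adenosine receptors, named in this list, were not analysed here. The equilibrative nucleoside transporter Slc29a1, which carries adenosine into the cell, differed by -1.84 ± 0.16 (limma adjusted p = 4.13e-05). The purine nucleoside phosphorylase Pnp differed by -1.54 ± 0.20, but its near-identical copy Pnp2 may share its signal, so the gene is uncertain. The AMP deaminase Ampd3, of the cytosol, had values of 4.33, 4.27 and 4.28 in dendritic and 6.61, 6.30 and 6.30 in macrophage arrays, a difference of -2.11 ± 0.13. Its relative Ampd2 was higher by 0.97 ± 0.16 and Ampd1 by 0.46 (limma adjusted p = 0.0212), and the nucleotidase Nt5c by 0.43 (limma adjusted p = 0.0222). The call of Ampd1 was lost without dendritic replicate 3 or any 1 macrophage replicate (adjusted p = 0.0533 to 0.0812), and that of Nt5c without any 1 array except dendritic replicate 1 (0.0507 to 0.0985). Without dendritic replicate 3 or any 1 macrophage replicate, 1 gene of the list was thus called higher in place of 3. Adenosine deaminase, Ada, whose human protein binds DPP4 on the surface of T cells, differed by 0.14 and was not called (limma adjusted p = 0.544).

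**Figure D4:**
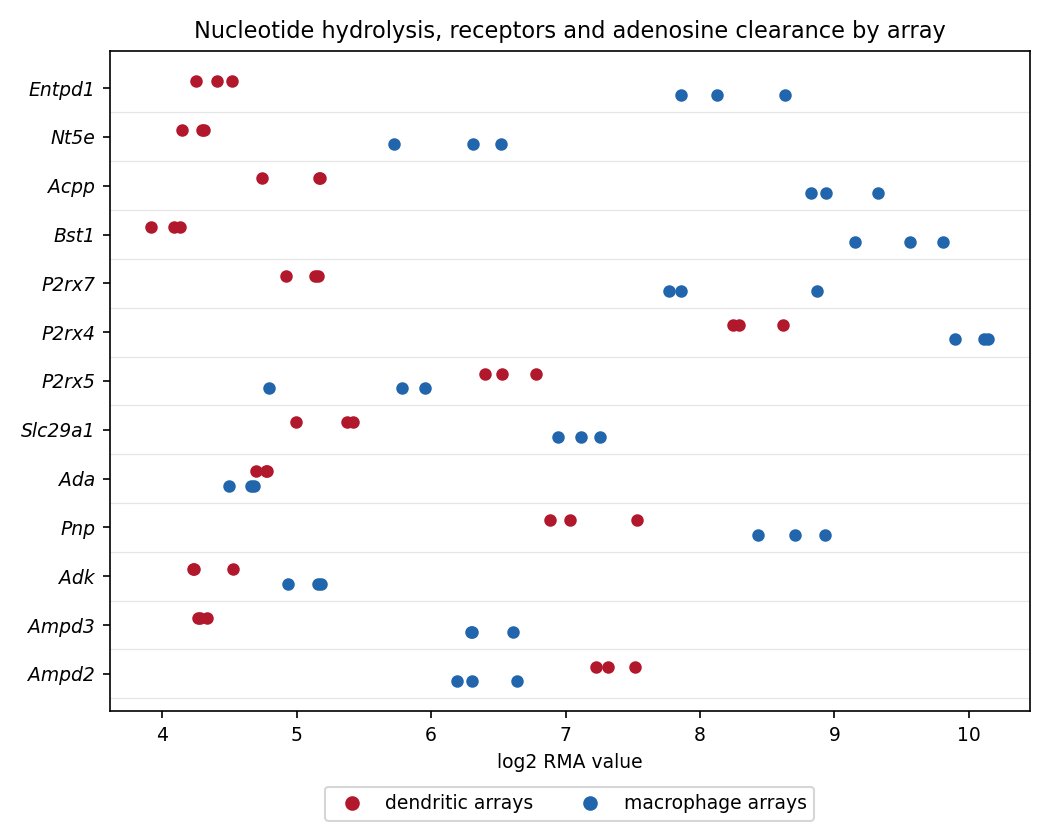
Log2 RMA values of 13 genes of nucleotide hydrolysis, ATP reception and adenosine clearance, with the 3 dendritic arrays in red above the 3 macrophage arrays in blue on each row. The dendritic arrays lie to the left of the macrophage arrays for Entpd1, Nt5e, Acpp, Bst1, P2rx7, P2rx4, Slc29a1, Pnp, Adk and Ampd3, and to the right for P2rx5, Ada and Ampd2.

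The NAD list holds the substrate side of Cd38 and Bst1. Of its 22 genes 3 were higher (9.98% of all genes) and 7 lower (11.6%), with a median of -0.12. Lower were Bst1, the NAD kinase Nadk (-1.33) and Nampt (-0.84), the rate-limiting enzyme of NAD salvage from nicotinamide. Higher were the deacetylase Sirt1 (1.38 ± 0.26), the NAD synthesis enzyme Nmnat3 (1.06) and Naprt (0.93), which uses nicotinic acid. The 7 lower became 3 without dendritic replicate 2, and 4 when either macrophage replicate 1, macrophage replicate 3 or dendritic replicate 3 was left out.

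Among the peptide substrates of these enzymes and their receptors, 4 of 32 were higher (9.98% of all genes) and 1 was lower (11.6%). The median was near 0 (0.003). The chemokine Ccl22, whose human protein DPP4 truncates in the test tube, had values of 11.28, 11.38 and 11.31 in dendritic and 6.24, 6.15 and 7.16 in macrophage arrays, a difference of 4.81 ± 0.25 (SE, n = 3 each; limma adjusted p = 2.05e-06). Ccl5, another chemokine that human DPP4 truncates, had 12.69, 12.62 and 12.47 in dendritic and 9.13, 6.90 and 7.47 in macrophage arrays, a difference of 4.76 ± 0.47 (limma adjusted p = 9.33e-05). Other chemokines of the list that human DPP4 is known to cut were not called, with differences of -0.10 for Cxcl9, 0.31 for Cxcl10, 0.33 for Cxcl11, 0.06 for Cxcl12 and -0.10 for Ccl11. Ccl3 was lower, with a difference of -3.67 ± 0.26, and 2 genes were lower without dendritic replicate 3. The opioid receptor Oprd1 (0.91) and the peptide hormone adrenomedullin, Adm (0.65, limma adjusted p = 0.0254), were the other 2 called higher. Higher genes numbered 3 without dendritic replicate 3 or macrophage replicate 2, with all probe sets tested, and when genes under the median level were left out. Ccl22, Ccl5 and Oprd1 kept their calls there. Adm lost its call or, under the filter, was not tested. The genes of the angiotensin and kinin systems on which Ace acts, Agt (0.11), Agtr1a (-0.03), Bdkrb1 (0.04) and Bdkrb2 (0.27), were not called.

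The pyrophosphate and phosphate list holds the partners of Enpp1. Of its 9 measured genes 2 were higher (9.98% of all genes) and 1 was lower (11.6%), with a median of 0.16. The pyrophosphate transporter Ank (1.04 ± 0.20) and the phosphate importer Slc20a1 (0.94 ± 0.14) were higher. Sting1, the receptor of the cyclic dinucleotide that human ENPP1 can hydrolyse, was lower, with a difference of -0.74 ± 0.14. Over all 9 lists, with each gene counted once, 16 of 141 measured genes were higher and 29 lower, 45 in all, with a median of -0.002. Of all genes tested 9.98% were higher and 11.6% lower, 21.6% in all. The measured genes that lists share are Bst1 and Alpl.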

How the data were processed

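The deposited values, for 35556 probe sets on each array, are log2 values that the authors made with RMA in R 3.0.2, according to the submitters' processing notes. RMA subtracts background, equalizes arrays by quantiles and combines probes. The arrays that went into it are not named in the sources used here. Without detection calls, low values have no floor, and precision is limited by the number of arrays. The platform's gene table gave 21789 probe sets 1 symbol and 1621 several, and did not list 12146. A RefSeq table of GRCm38.p6 held 21698 of the named ones, with 0 symbols changed. Keeping the brightest probe set of each gene left 19938 genes.

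Populations were compared with limma 3.58.1 under R 4.3.3 (lmFit and eBayes, 2-sided), with no filter on level. An adjusted p under 0.05 made a call. Exact 2-sided permutation tests of 3 against 3 arrays cannot go below 0.10. They gave 0.1 for Dpp4, Anpep, Ace, Entpd1 and Nt5e, and 0.6 for Mme. The fit was tested on simulated data. Python 3.11.15, pandas 2.3.3 and matplotlib 3.10.9 were used for tables and figures. The members and lists were chosen with earlier results of these data known. From each list up to 3 called genes with the largest difference in each direction are named, and a few others for their role. Protein sequences are not used here.

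The deviations of arrays from their populations' means had correlations of 0.385, 0.147 and 0.272 between same-numbered arrays (numbers 1, 2 and 3), all over 0.1. Different numbers gave 0.155 (dendritic 2 with macrophage 3) and 0.128 (dendritic 3 with macrophage 2). All pairs of a replicate 1 with another number were negative, from -0.3195 to -0.2046. Replicate 1 thus correlated positively with its own number alone, while number 2 does not match better than a mismatch. What a number marks is not labelled. The reported values come from the fit without this pairing, and blocking on the number was an alternative, beside other scalings, filters, probe set rules, spread models, array weights and leaving out each array.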

Additional observations from a re-analysis of the deposited data

How the results depend on the processing

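The results were recomputed under 16 alternatives, of which leaving out replicate 1 of both populations was chosen after seeing the data. Dpp4 stayed higher and Anpep, Ace, Entpd1 and Nt5e lower, and called, in all 16. The difference ranged from 2.82 to 3.57 for Dpp4, from -1.43 to -1.22 for Anpep, from -1.37 to -0.95 for Ace, from -3.99 to -3.53 for Entpd1 and from -2.16 to -1.63 for Nt5e. Their highest adjusted p were 0.00125, 0.000839, 0.0153, 7.9e-05 and 0.00135. Mme changed sign without being called, to 0.0243 with 75th percentile centring and 0.0101 without macrophage replicate 3 (range when 1 array was left out, -0.1345 to 0.0101); it falls under both filters on level and has no value there. With the replicate number as a block (pairing), 5207 genes were called in place of 4312, and no member's call changed. Leaving out 1 array gave 3311 to 4625 calls. Of 34 genes named from the lists for the size of their difference, 30 kept direction and call in every alternative that tested them. P2rx5, Gja1, Ampd1 and Nt5c did not. With all probe sets tested P2rx5 and Gja1 were lost (adjusted p = 0.0711 and 0.0712), and Gja1 also after quantile normalization was applied again (0.0519). Some small counts over the lists moved by more than 1.5 times. Lower genes of the NAD list numbered 3 in place of 7 with 75th percentile centring and with all probe sets, and higher ones 5 in place of 3 with array weights and without replicate 1 of both populations. Of the intracellular peptidases 3 in place of 5 were lower with all probe sets, and 1 in place of 0 was higher with centring, repeated quantile normalization and the block. Higher genes of ATP release and P2X receptors numbered 0 in place of 2 with all probe sets, and 1 with repeated quantile normalization and either filter. Lower substrates and receptors numbered 2 in place of 1 with array weights, the mean of probe sets, the block and either filter, and higher ones 7 in place of 4 with array weights. Lower phosphate genes numbered 2 in place of 1 with array weights and with the filter at the median. Centring on the 75th percentile moved the median difference of all genes to 0.13, beside 0.03, and the share of calls that were higher to 55.5%, beside 46.2%. Low signal limits Mme and the dendritic levels of Entpd1, Nt5e and Ace, whose folds are values on the RMA scale. The called genes Adm, Gja1 and Ampd1 lay below the median gene on every array.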
